A study of Eucalyptus urophylla with 24 samples.

Results

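The genes described here are those that the annotation of the deposited expression table names as parts of the ethylene and jasmonate pathways. They were found by words in the gene descriptions: 1-aminocyclopropane-1-carboxylate (ACC) enzymes, the ethylene receptor and ETHYLENE INSENSITIVE proteins for ethylene, and lipoxygenase, allene oxide, 12-oxophytodienoate, TIFY and jasmonate for jasmonate. The rule found 75 of 26033 genes, 43 for ethylene and 32 for jasmonate. The rule uses the descriptions and no measured value. Many of the largest differences between triploid and diploid among these genes lay at the mature and senescent stages. There the triploid held more transcript of the ethylene receptor 2 gene (6.09-fold in mature and 4.17-fold in senescent leaves), of an ACC oxidase 3 gene (7.53-fold in senescent leaves), of a 13S-lipoxygenase 2-1 gene (5.79-fold and 10.1-fold), of a 9S-lipoxygenase 5 gene (2.87-fold and 12.4-fold) and of the TIFY 10a repressor gene (2.10-fold and 4.96-fold). For the 13S-lipoxygenase gene, a test on the read counts did not make these calls. Large differences also lay in terminal buds, where the triploid was higher for the ACC deaminase gene (log2 difference 2.10) and for an ACC oxidase homolog. It was lower there for another homolog and for a 12-oxophytodienoate reductase 3-like gene. In senescent leaves it was lower for the most abundant ACC oxidase gene and for a TIFY 6B gene. Genes lower in the triploid at both older stages were 6 of 35 tested for ethylene and 3 of 27 for jasmonate. Those higher at both were 8 and 9. Of all genes, 20.7% were higher at both and 22.6% lower.

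Ethylene is a gaseous hormone made from S-adenosylmethionine. ACC synthase forms ACC, and ACC oxidase turns ACC into ethylene. Its receptors are repressors of the response that ethylene switches off, after which EIN2 signals to the transcription factors EIN3 and EIL in the nucleus. Ethylene is known for promoting leaf senescence, abscission and fruit ripening. Jasmonate is made from fatty acids of chloroplast membranes by 13-lipoxygenase, allene oxide synthase and allene oxide cyclase, and then by 12-oxophytodienoate reductase (OPR) and beta-oxidation in the peroxisome. Its conjugate with isoleucine lets the receptor COI1 mark the JAZ repressors, which are TIFY proteins, for breakdown, and the MYC transcription factors are then free to act. Jasmonate is known for the response to wounding and herbivores, and it too can promote leaf senescence.

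The libraries are RNA sequencing of triploid and diploid *Eucalyptus urophylla*, a plantation tree, at 4 stages of the leaf: terminal buds, young leaves (called juvenile in the labels), fully expanded mature leaves and senescent leaves. Each ploidy had 3 libraries at each stage, 24 libraries in 8 groups. No treatment was named in the labels, and the plants differ by their ploidy alone as far as these give it. All triploid libraries carry 1 code in their titles and all diploid ones another, so that the effect of ploidy and that of any further difference between the sampled trees cannot be told apart. Whether the 3 libraries of a group came from separate trees is not stated, so that the p-values measure only how far these libraries spread. In bulk tissue, fewer cells of a type and less RNA per cell cannot be told apart.

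The total count per library was 38395755 to 64400745. In the diploid, library 3 of terminal buds and libraries 1 and 3 of young leaves lay farther from their groups than any other library. Markers fitted the labelled stages: the summed level of 13 genes of dividing cells was 543.9 to 653.1 FPKM in triploid and 504.9 to 660.4 FPKM in diploid buds and young leaves, and at most 193 FPKM in all older leaves. The 10 markers of senescing leaves (SAG12 and SAG39 proteases and enzymes of chlorophyll breakdown) summed to 5568 to 5902 FPKM in triploid and 33307 to 38534 FPKM in diploid senescent leaves, and to 260.5 to 274.0 FPKM and 1653 to 1854 FPKM in mature leaves of the triploid and the diploid. Of these 10 markers, 4 were at 0 in the triploid and 1 in the diploid mature leaves, and 1 and 2 in senescent leaves. The 17 markers of green leaves, small subunits of Rubisco and chlorophyll-binding proteins, summed to 2501 to 2850 FPKM in triploid and 5070 to 5885 FPKM in diploid senescent leaves. These sums moved with ploidy at the same stages as the hormone genes below, and their part in those results was not tested.

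Levels are given as fragments per kilobase of gene, set to a common number of fragments per library (FPKM), scaled so that the median ratio between libraries over 11530 well-measured genes was 1. Differences are on the scale of log2(FPKM + 1), which understates the change of low genes, and were tested with limma. A gene is called higher or lower at a Benjamini-Hochberg adjusted p under 0.05 over all 19174 genes tested. Genes had to average 0.5 FPKM or more to be tested. For ethylene 35 of 43 genes passed this filter, the lowest with a mean of 0.531 FPKM, and the highest of the 8 left out had 0.487 FPKM. For jasmonate 27 of 32 passed, the lowest with 0.716 FPKM, and the highest left out had 0.450 FPKM. A mean of at least 10 FPKM was reached by 16 ethylene and 19 jasmonate genes, and at least 50 FPKM by 5 of each.

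The stage of the highest mean level was counted in each ploidy. Of the 35 ethylene genes tested, 16 had their highest mean in senescent leaves of the triploid and 12 did so in the diploid, against 9 and 9 in terminal buds. Of the 27 jasmonate genes, 13 had it in terminal buds of the triploid and 14 in the diploid, against 7 and 3 in senescent leaves. The stage of the highest mean was the same in both ploidies for 29 of 35 ethylene and 19 of 27 jasmonate genes. This stage was not counted over all genes, so these numbers cannot tell whether either list differs from other genes.

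At the level of the whole lists, the ploidies were compared first in the youngest tissue. In terminal buds 4 ethylene genes were higher and 13 lower in the triploid, with a median log2 difference of −0.12, where 21.7% of all genes were called higher and 24.4% lower and the median of all genes was −0.03. For jasmonate the counts were 8 higher and 8 lower, with a median of −0.06. In young leaves, where 10.6% of all genes were called higher and 12.7% lower, 1 ethylene gene was higher and 7 were lower, and 5 jasmonate genes were higher and 4 lower. The ethylene count in young leaves was 4 of 35 in place of 8 without the 3 diploid libraries that lay farthest from their groups, and also 4 without triploid young leaf library 3 or without diploid young leaf library 2. In mature leaves 30.1% of all genes were called higher and 33.8% lower in the triploid. There 12 ethylene genes were higher and 10 lower (median 0.01, all genes −0.03), and 11 jasmonate genes were higher and 5 lower (median 0.20). In senescent leaves 29.4% of all genes were called higher and 30.4% lower. There 11 ethylene genes were higher and 9 lower (median −0.05, all genes −0.0038), and 12 jasmonate genes were higher and 4 lower (median 0.21). Jasmonate genes thus had 40.7% and 44.4% of their tested members higher in the triploid at the older stages, and ethylene genes 34.3% and 31.4%, shares that for ethylene lay near those of all genes. The 9S-lipoxygenases, whose products do not lead to jasmonate, gave 2 and 3 of the higher jasmonate calls at these stages.

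The ethylene list is mixed in what its members do. Its 21 tested ACC oxidase homologs are dioxygenases named for their likeness to ACC oxidase, with no established part in ethylene synthesis. In mature leaves 3 homologs were higher and 8 lower in the triploid (median −0.18), which became 6 and 4 (median 0.03) without scaling the libraries, while of the 14 other ethylene genes 9 were higher and 2 lower (median 0.48). In senescent leaves the homologs had 4 higher and 8 lower (median −0.12), and 6 and 8 (median 0.17) without the scaling. The other ethylene genes there had 7 higher and 1 lower (median 0.22). Of all genes, 30.1% were called higher and 33.8% lower in mature leaves, and 29.4% and 30.4% in senescent leaves. The split into homologs and other genes follows the annotation and was made after the values were seen.

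**Figure D1:**
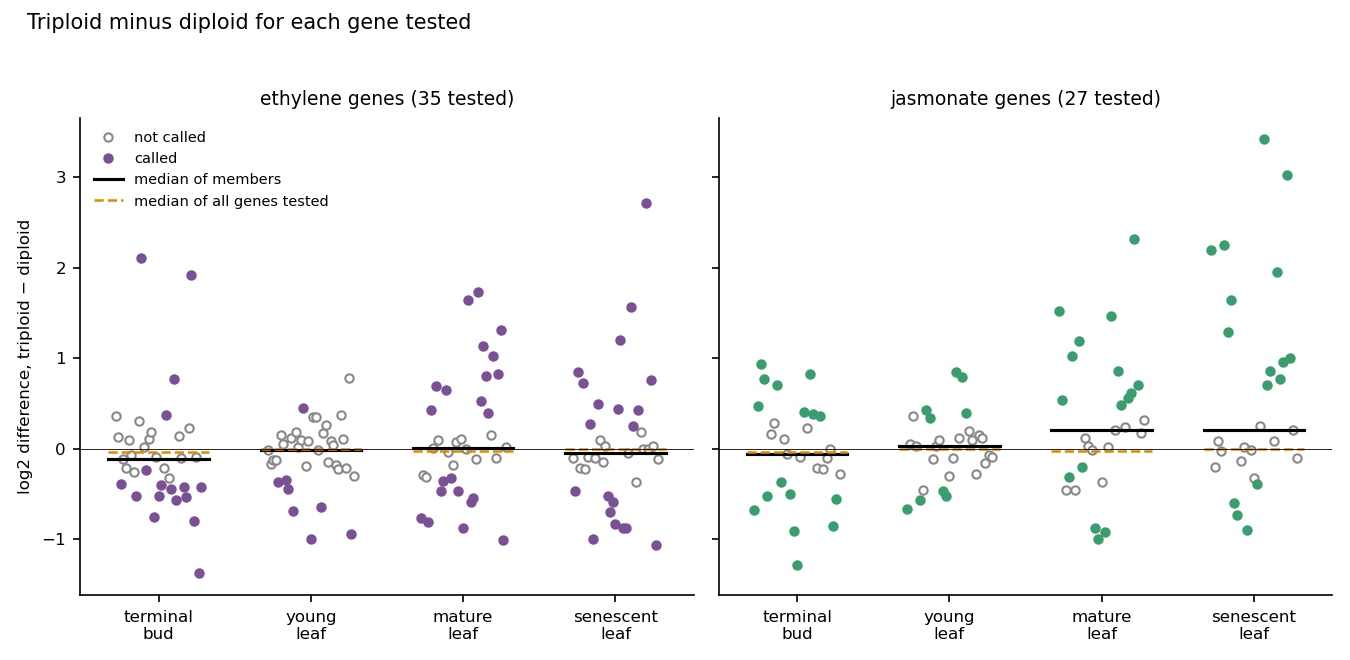
Log2 difference, triploid minus diploid (vertical axis), of each of the 35 ethylene genes (left) and 27 jasmonate genes (right) tested, at the 4 stages. Filled points are called and open points are not, black bars are the medians of the members and dashed bars the medians of all genes tested; the medians of the jasmonate genes lie at 0.20 and 0.21 in mature and senescent leaves, and those of the ethylene genes at 0.01 and −0.05.

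The scaling matters for the balance of higher and lower genes. Without it, the median of all genes shifted to −0.18 in terminal buds, to 0.20 at the mature stage and to 0.17 at the senescent one, and to 0.23 between triploid young leaves and buds. In mature leaves the ethylene genes would then be 16 higher and 4 lower in place of 12 and 10, and the jasmonate genes 16 higher and 3 lower in place of 11 and 5. In terminal buds the jasmonate genes would be 4 higher and 9 lower in place of 8 and 8. All differences given here are relative to the shift.

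Genes called higher in the triploid at both older stages numbered 8 of 35 for ethylene (22.9%) and 9 of 27 for jasmonate (33.3%), where the share of all genes was 20.7%. Those lower at both stages were 6 for ethylene (17.1%) and 3 for jasmonate (11.1%), with 22.6% over all genes. The ethylene receptor, both EIN3/EIL genes, the ACC deaminase and 2 ACC oxidases are among the 8, together with 2 homologs. Among the 9 jasmonate genes are 3 of the 4 13S-lipoxygenases, 2 of the 4 9S-lipoxygenases, the allene oxide synthase and 2 TIFY genes.

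As leaves matured, most ethylene genes called were higher and most jasmonate genes called were lower. In the diploid the higher ethylene genes were ACC oxidase homologs and ACC oxidases. In mature against young leaves of the triploid, 23 ethylene genes were higher and 7 lower (median 0.76), and 7 jasmonate genes were higher and 13 lower (median −0.37), with 32.5% of all genes called higher and 36.8% lower (median −0.05). In the diploid the counts were 17 higher and 6 lower for ethylene (median 0.32) and 6 higher and 15 lower for jasmonate (median −0.55), with 32.2% and 38% of all genes (median −0.08). Without the scaling the median of all genes in this diploid comparison was −0.47, and its counts became 13 higher and 14 lower for ethylene and 3 higher and 19 lower for jasmonate, so that the ethylene excess of higher genes in the diploid rested on the scaling. The triploid counts then were 22 and 7 for ethylene and 6 and 15 for jasmonate. With the scaling, the 21 ACC oxidase homologs had 12 higher and 1 lower in the diploid (median 0.79). The 14 other ethylene genes there had 5 higher and 5 lower (median −0.11). Among these, the 9 ACC oxidases had 5 higher and 2 lower (median 0.36), and 3 and 4 without the scaling. In the triploid the homologs had 13 higher and 4 lower (median 0.98), and the others 10 and 3 (median 0.68).

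In young leaves against terminal buds of the triploid, 15 ethylene genes were higher and 13 lower, and 8 jasmonate genes were higher and 12 lower, with 31.1% of all genes higher and 35.4% lower. The scaling moved these splits, to 15 and 8 for ethylene and 9 and 9 for jasmonate without it. In the diploid this comparison gave 14 and 14 for ethylene and 6 and 13 for jasmonate (14 and 11, and 6 and 9, without the scaling), with 26.6% and 32.4% of all genes. In senescent against mature leaves of the triploid, 12 ethylene genes were higher and 9 lower and 9 jasmonate genes were higher and 8 lower, with 28.0% of all genes higher and 33.6% lower. In the diploid it gave 14 and 13 for ethylene and 4 and 10 for jasmonate, with 24.3% and 36.0% of all genes. The last count, 14 jasmonate genes in all, was 9 without diploid senescent leaf library 2 and also 9 without diploid mature leaf library 1.

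**Figure D2:**
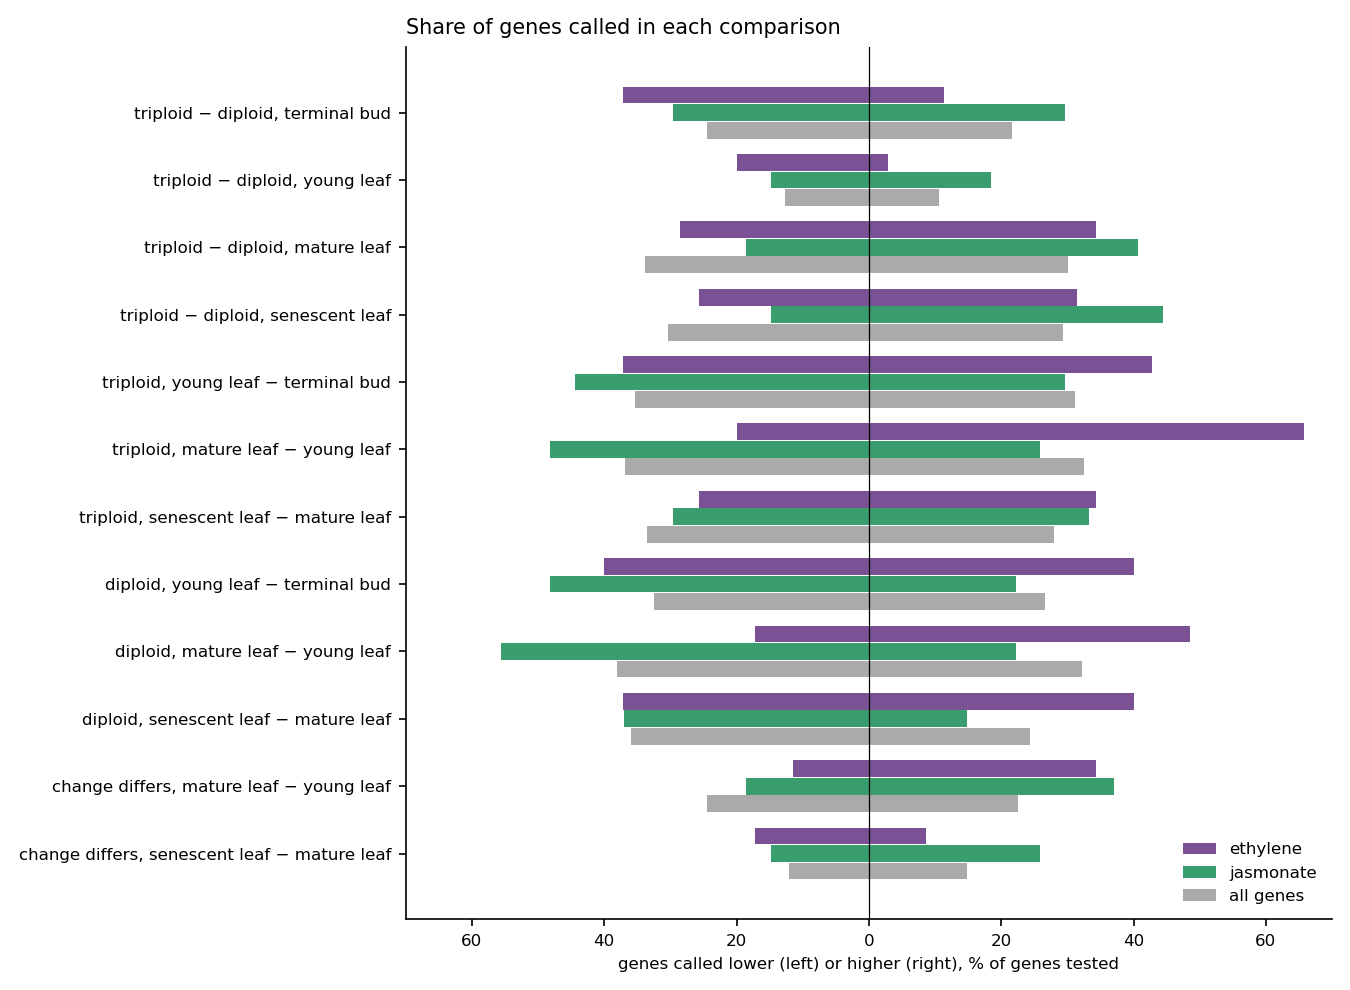
Share of the 35 ethylene genes, the 27 jasmonate genes and all 19174 genes tested that were called lower (bars to the left, % of genes tested) or higher (bars to the right) in each of 12 comparisons, in which the group named first is set against the second, or the change between stages in the triploid against that in the diploid. In mature against young triploid leaves, 23 of 35 ethylene genes were higher and 13 of 27 jasmonate genes lower.

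Whether a stage change differed between the ploidies was tested as the change in the triploid minus the change in the diploid. From young to mature leaves, 12 ethylene genes had a more positive change in the triploid and 4 a more negative one, and for jasmonate 10 and 5, where 22.5% and 24.5% of all genes were called in these directions. Without the scaling these counts were 16 and 0 for ethylene and 13 and 3 for jasmonate, at a median of all genes of 0.25. From mature to senescent leaves, 3 ethylene genes were called more positive and 6 more negative, and 7 and 4 jasmonate genes, with 14.8% and 12% of all genes.

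Ethylene synthesis begins with ACC synthase, which is low throughout these libraries. Of 4 ACC synthase genes 1, Eucgr.D01814 (chromosome 4, 31598550–31601858 in the coordinates of the file, an *E. grandis* annotation), passed the filter. It had 1.73, 1.54 and 1.17 FPKM in triploid young leaves, against 2.20, 2.06 and 2.16 FPKM in diploid ones, and the groups did not overlap (log2 difference −0.34 ± 0.11 SE, limma adjusted p = 0.027), a call that edgeR and DESeq2 on the counts did not make (adjusted p = 0.40 and 0.28). Mature leaves held less of it than young ones in both ploidies, 0.159 ± 0.105 FPKM in the triploid and 0.0769 ± 0.029 FPKM in the diploid (SD, n = 3), with log2 differences of −1.10 and −1.54. In senescent leaves it was present in all 3 triploid libraries (0.232, 0.266 and 0.142 FPKM) and listed at 0 in all 3 diploid ones. Another ACC synthase, Eucgr.E00100, named after its values were seen and too low for the test, had 1.33, 1.41 and 1.76 FPKM in triploid senescent leaves and was listed at 0 in every mature and senescent diploid library.

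ACC oxidase, which releases ethylene from ACC, was far more abundant. The summed level of its 12 genes was 281 ± 8.81 FPKM in triploid and 317 ± 37.7 FPKM in diploid senescent leaves (SD, n = 3), and 366 ± 8.42 and 393 ± 18.0 FPKM in mature leaves. Its most abundant gene at every stage was Eucgr.E03977 (chromosome 5, 71704021–71706015). This gene was lower in the triploid at every stage, by log2 differences of −0.52, −0.45, −0.46 and −1.0 (limma adjusted p = 0.00051, 0.0048, 0.00088 and 1.1e-07), of which the mature call was lost without the scaling (−0.10, adjusted p = 0.42). In senescent leaves it had 78.9, 74.3 and 82.3 FPKM in the triploid, against 156, 135 and 186 FPKM in the diploid, where no triploid library reached the lowest diploid one. It supplied 27.9% of the summed ACC oxidase level in triploid and 50.1% in diploid senescent leaves.

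Other ACC oxidases lie in an array of 6 neighbours on chromosome 11 (8794939–8917792, 122.9 kb), of which 5 were tested. Eucgr.K00750, annotated as ACC oxidase 3, lies at its end (8916161–8917792). It had 42.0, 42.3 and 41.9 FPKM in triploid senescent leaves, against 6.22, 5.24 and 5.29 FPKM in diploid ones. Before that stage it was low, with 2.51, 2.95 and 4.01 FPKM in triploid mature leaves, against 0.678, 0.888 and 1.62 FPKM in diploid ones. The triploid libraries lay above all diploid libraries at both stages. The ploidy difference was 2.71 ± 0.16 (SE) in senescent and 1.02 ± 0.16 in mature leaves (limma adjusted p = 6.6e-12 and 8.6e-06). From mature to senescent leaves it was called higher in both ploidies, by 3.39 in the triploid and 1.70 in the diploid. These changes differed by 1.69 ± 0.22 (adjusted p = 6.7e-06), a call that edgeR on the counts, with 1 diploid senescent library, did not make (adjusted p = 0.17).

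At the other end of the array, Eucgr.K00739 (8794939–8796471), also ACC oxidase 3, was ordered differently. It had 4.49, 3.52 and 4.75 FPKM in triploid mature leaves, against 1.08, 1.34 and 1.74 FPKM in diploid ones, a difference of 1.14 (adjusted p = 3.9e-06). In senescent leaves it had 5.06, 8.02 and 7.00 FPKM in the triploid, against 10.5, 6.91 and 9.30 FPKM in the diploid, where the libraries overlapped (−0.37, adjusted p = 0.056). The change from mature to senescent leaves was thus smaller in the triploid (0.54) than in the diploid (2.05), with a difference of −1.51 (adjusted p = 4.2e-05). The most abundant genes of the array, Eucgr.K00747 and Eucgr.K00749, chosen after their values were seen, averaged 63.9 and 57.4 FPKM in triploid and 56.3 and 57.5 FPKM in diploid senescent leaves and were not called there. Such neighbours can be near-identical in sequence, and how reads were split between them is not stated, so their separate levels are uncertain.

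Eucgr.C03886, ACC oxidase 1 (chromosome 3), was a gene of buds. It had 13.8, 10.4 and 10.9 FPKM in triploid and 10.8, 8.72 and 13.3 FPKM in diploid terminal buds, fell by 1.91 on the log2 scale in triploid and by 1.98 in diploid young leaves, and was called in no ploidy comparison. Over the 9 ACC oxidases tested, 7 were higher and 2 lower in mature than in young leaves of the triploid, and 5 and 2 in the diploid, a diploid count that became 3 and 4 without the scaling. The ploidy comparison gave 5 higher and 2 lower in mature leaves, and 6 and 0 without the scaling. With the scaling, 32.5% of all genes were higher and 36.8% lower in mature than in young leaves of the triploid. In the diploid these shares were 32.2% and 38%, and between ploidies in mature leaves 30.1% and 33.8%.

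ACC can also be broken down instead of being oxidised. Eucgr.H00596 (chromosome 8, 8389760–8395385), annotated as a mitochondrial D-cysteine desulfhydrase and ACC deaminase, changed between buds and young leaves in opposite directions in the ploidies. Terminal buds had 43.1, 43.7 and 41.7 FPKM in the triploid, against 6.76, 7.95 and 14.2 FPKM in the diploid. Young leaves had 16.5, 16.7 and 17.2 FPKM in the triploid, against 28.5, 27.1 and 27.5 FPKM in the diploid. Neither pair of groups overlapped, and the sign turned between them: 2.10 ± 0.18 (SE) in buds and −0.69 ± 0.18 in young leaves (limma adjusted p = 7.6e-09 and 0.008). In mature and senescent leaves it was higher again in the triploid, by 0.65 and 0.50, of which the senescent call was not made by edgeR (0.25, adjusted p = 0.54). In terminal buds the phloem markers, 15 genes of sieve element occlusion, also differed between the ploidies, with sums of 495 to 510.0 FPKM in the triploid and 146 to 240.0 FPKM in the diploid and 1 marker at 0 in each. In young leaves, where the gene was lower in the triploid, the phloem sums were 130 to 151 FPKM in the triploid and 49.8 to 64.8 FPKM in the diploid, also with 1 marker at 0 in each. Their part in these differences was not tested.

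The ACC oxidase homologs lie mostly in arrays, 13 of 23 genes within 288.7 kb of chromosome 8 (44038627–44327281) and 6 within 90.1 kb of chromosome 11 (40823951–40914010). Their summed level was 463 ± 20.6 FPKM in triploid and 472 ± 19.2 FPKM in diploid senescent leaves. Eucgr.H03097, the most abundant, averaged 26.5, 57.7, 108 and 115 FPKM from buds to senescent leaves of the triploid and 26.6, 50.6, 111 and 108 FPKM in the diploid, and was called at no stage between ploidies. Neighbours of it in the array ran in opposite ways at senescence. Eucgr.H03109 (44126410–44129090) had 89.1, 99.2 and 95.1 FPKM in triploid and 65.6, 69.1 and 74.1 FPKM in diploid senescent leaves, after 16.8 ± 0.474 and 16.9 ± 2.83 FPKM in mature leaves, a rise of 2.42 and 1.99. Eucgr.H03105 (44101694–44103508) had 13, 13.2 and 12.6 FPKM in triploid and 19.3, 19.8 and 20.5 FPKM in diploid senescent leaves, where it fell by 2.86 and 2.16 from the mature level of 99.8 and 92.3 FPKM. In senescent leaves the triploid was higher for Eucgr.H03109 (0.44, limma adjusted p = 0.0059, not called by edgeR with 0.25 and adjusted p = 0.43) and lower for Eucgr.H03105 (−0.58, adjusted p = 2.5e-07).

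Eucgr.H03111, homolog 11, stood out in mature leaves, with 14.1, 13.9 and 14.0 FPKM in the triploid, against 3.64, 4.35 and 3.43 FPKM in the diploid. The difference was 1.65 ± 0.14 (SE; limma adjusted p = 3.7e-09), and 1.2 in senescent leaves. From young to mature leaves it was called higher in the triploid alone (1.38), and the test of the difference between the ploidies gave 1.29 (adjusted p = 2.7e-05). Other homologs were lower in the triploid at all 4 stages. Eucgr.H03108 was so by −0.52, −1.0, −0.87 and −0.83, and Eucgr.K03277 by −1.38, −0.94, −1.01 and −1.06. For Eucgr.K03277 senescent leaves had 14.7, 12.9 and 15.2 FPKM in the triploid, against 30.6, 28.2 and 34.0 FPKM in the diploid.

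On chromosome 11, Eucgr.K03271 was a bud gene with 3.89, 5.58 and 5.56 FPKM in triploid terminal buds, against 0.747, 0.562 and 0.432 FPKM in diploid ones (1.92, limma adjusted p = 1.7e-10). Eucgr.K03278 rose from stage to stage in both ploidies, to 21.2 ± 1.13 FPKM in triploid and 23.1 ± 3.01 FPKM in diploid senescent leaves, and was called between ploidies in buds alone (−0.42), with an adjusted p of up to 0.28 when single libraries were left out. Eucgr.K03275 had 5.79, 20.5 and 20.7 FPKM in triploid mature leaves, against 5.27, 5.0 and 4.48 FPKM in diploid ones. Its call there (1.31, adjusted p = 0.015) was lost when single libraries were left out, with an adjusted p of up to 0.08. On chromosome 1, Eucgr.A02644 and Eucgr.A02646, both homolog 4, were called higher in mature than in young leaves of both ploidies, by 2.81 and 2.67 in the triploid and 2.99 and 3.36 in the diploid. In senescent leaves Eucgr.A02644 kept 10.8, 10.7 and 10.1 FPKM in the triploid, against 4.58, 5.64 and 6.0 FPKM in the diploid. For Eucgr.A02646 the triploid was lower in mature leaves (−0.81), a call that edgeR did not make (adjusted p = 0.078).

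**Figure D3:**
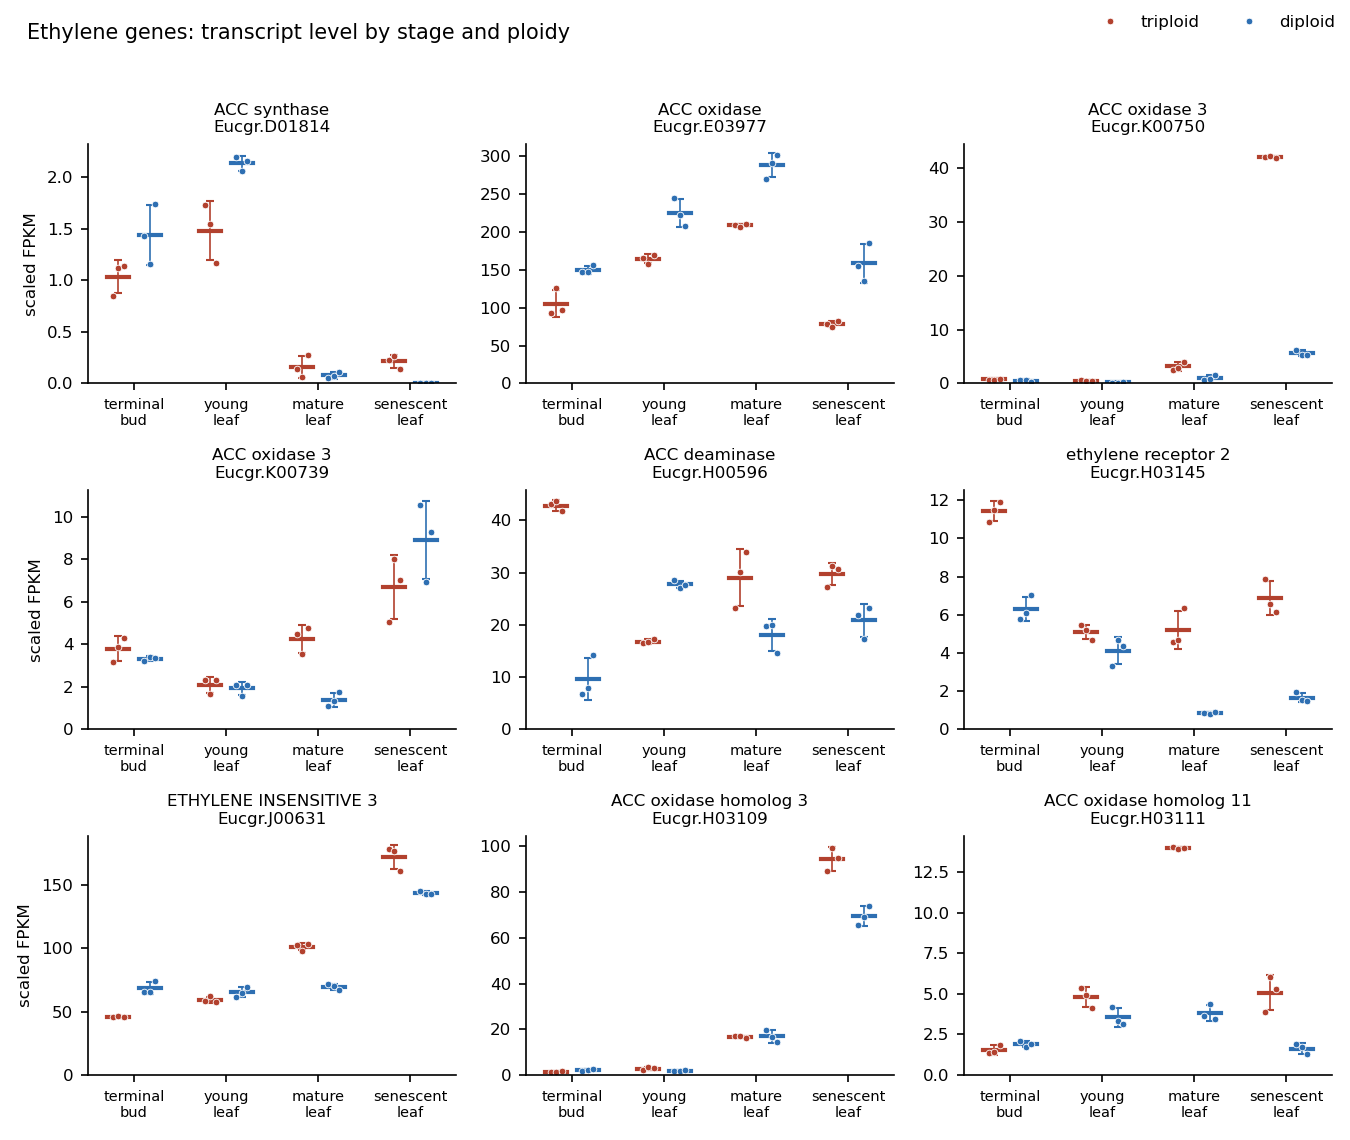
Scaled FPKM (vertical axes, each from 0) of 9 ethylene genes at the 4 stages, with triploid libraries in red to the left of diploid ones in blue. Points are libraries, bars the means of 3 and whiskers 1 SD; Eucgr.K00750 and Eucgr.H03109 are highest in senescent leaves, and ethylene receptor 2 in mature leaves is between 4.56 and 6.34 FPKM in the triploid and between 0.822 and 0.886 FPKM in the diploid.

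The ethylene receptor 2 gene, Eucgr.H03145 (chromosome 8, 44646577–44651155), encodes a receptor that holds the response down until it binds ethylene. Its level fell from buds to young leaves in both ploidies. After that stage the ploidies parted. Mature leaves had 4.56, 4.70 and 6.34 FPKM in the triploid, against 0.852, 0.822 and 0.886 FPKM in the diploid. Senescent leaves had 7.86, 6.56 and 6.17 FPKM in the triploid, against 1.93, 1.51 and 1.5 FPKM in the diploid. Every triploid library lay above every diploid one at both stages, by 1.73 ± 0.12 (SE) and 1.57 ± 0.12 (limma adjusted p = 4.1e-10 and 1e-09). In terminal buds the difference was 0.77, and in young leaves 0.26 was not called. From young to mature leaves it fell by 1.46 in the diploid and by the estimate did not move in the triploid (0.01, adjusted p = 0.93), and these changes differed by 1.47 ± 0.18 (adjusted p = 2e-06).

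Downstream, the transcription factor gene ETHYLENE INSENSITIVE 3, Eucgr.J00631 (chromosome 10, 6957590–6961071), was highest in senescent leaves. It had 178, 177 and 161 FPKM in triploid and 145, 143 and 143 FPKM in diploid senescent leaves (0.26, limma adjusted p = 0.0027, and 0.26 by edgeR, which made no call). In mature leaves it had 103, 97.9 and 103 FPKM in the triploid, against 71.8, 70.3 and 67.1 FPKM in the diploid (0.53, adjusted p = 1e-06). In terminal buds it was lower in the triploid, with 46.0, 46.2 and 45.7 FPKM against 65.9, 65.5 and 74.2 FPKM in the diploid (−0.56, adjusted p = 1.1e-06). The triploid level was called higher at each stage than at the one before, by 0.36, 0.76 and 0.76. In the diploid only senescent leaves were called against the stage before (1.03), and the mature minus young difference of 0.09 turned to −0.42 without the scaling. The second gene of this class, Eucgr.B03664, chosen after its values were seen, averaged 13.1 and 16.9 FPKM in mature and senescent leaves of the triploid and 9.48 and 9.93 FPKM in the diploid, and was called higher in the triploid at both stages (0.43 and 0.72).

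Other genes of the ethylene route came from lists of 8 genes in all, each tested. Between ploidies 3 were higher and 1 lower in the triploid in terminal buds, none was called in young leaves, 5 and 2 in mature leaves and 3 and 1 in senescent leaves, where the shares of all genes were 30.1% and 33.8% in mature and 29.4% and 30.4% in senescent leaves. In buds the shares of all genes were 21.7% and 24.4%, and in young leaves 10.6% and 12.7%. S-adenosylmethionine synthase, Eucgr.A01021, had 55.4, 54.8 and 48.2 FPKM in triploid mature leaves, against 137, 154 and 160 FPKM in diploid ones (−1.49, limma adjusted p = 1.7e-07), and was higher in triploid buds (0.65). Eucgr.K03328, an ETO1-like protein of the kind that marks ACC synthases for breakdown, was higher in the triploid in buds, mature and senescent leaves (0.85, 0.39 and 0.66). Of the CTR1-like kinases, which block the signal when no ethylene is bound, Eucgr.K02077 was higher in triploid mature leaves (1.15) and Eucgr.F00429 lower (−0.91). Eucgr.C01744, an F-box protein of the kind that marks EIN3 for breakdown, was higher in triploid mature and senescent leaves (0.45 and 0.73). EIN2, Eucgr.K01247, from a list added after the values were seen, averaged 12.2 and 12.4 FPKM in mature and senescent leaves of the triploid and 6.46 and 8.11 FPKM in the diploid (0.82 and 0.56, limma adjusted p = 0.0002 and 0.0063). It was also called higher in triploid young leaves, and not in buds. Also added then were 2 other receptor genes, Eucgr.H04259 and Eucgr.K03513. Of these, 1 was higher in the triploid in mature and 1 in senescent leaves, and none was called in buds or young leaves.

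Jasmonate synthesis starts with 13S-lipoxygenases, which oxygenate linolenic acid in the chloroplast. All 4 were higher in the triploid in mature leaves, and 3 in senescent leaves, where 30.1% and 29.4% of all genes were called higher. Eucgr.J00821, 13S-lipoxygenase 2-1 (chromosome 10, 8727077–8729481), was near 0 in buds and young leaves, where no library of either ploidy passed 0.422 FPKM. It had 27.6, 26.9 and 28.3 FPKM in triploid mature leaves, against 5.85, 4.28 and 4.16 FPKM in diploid ones. In senescent leaves it had 33.2, 37.5 and 36.7 FPKM in the triploid, against 4.06, 3.09 and 3.45 FPKM in the diploid. The groups lay far apart at both stages, by 2.32 ± 0.13 and 3.03 ± 0.13 (SE; limma adjusted p = 1.5e-11 and 9.6e-14), and DESeq2 on the counts did not make these calls (adjusted p = 0.068 and 0.10). From young to mature leaves it rose by 4.64 in the triploid and 2.44 in the diploid. On this scale the rises differed by 2.20 (adjusted p = 2.6e-08), a call that neither edgeR nor DESeq2 on the counts made (adjusted p = 0.45 and 0.70).

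Its neighbour Eucgr.J00820, 40.3 kb from end to end with it and named after its values were seen, ran the other way along the stages. It had 24.1, 23.0 and 24.4 FPKM in triploid and 23.6, 25.0 and 28.8 FPKM in diploid buds, and 5.25, 6.19 and 4.85 FPKM in triploid and 2.76, 1.81 and 2.40 FPKM in diploid senescent leaves. Like Eucgr.J00821 it was higher in the triploid in mature and senescent leaves (0.62 and 0.96). The most abundant of the class, lipoxygenase 6, Eucgr.H04662 (chromosome 8), was highest in mature leaves, with 126, 116 and 117 FPKM in the triploid, against 94.2, 89.4 and 73.0 FPKM in the diploid (0.49, limma adjusted p = 0.00028). Eucgr.J02807, 13S-lipoxygenase 3-1, chosen after its values were seen, averaged 13 FPKM in triploid and 24.4 FPKM in diploid buds, and 23.0 and 11 FPKM in senescent leaves, so that its sign turned, with −0.86 in buds and 0.70 and 1.01 in mature and senescent leaves.

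9S-lipoxygenases oxygenate the fatty acid at another carbon, and their products do not lead to jasmonate. Eucgr.H04495 (chromosome 8, 60796331–60802755) showed the largest ploidy difference among the named genes. In the triploid it had 44.8, 44.6 and 44.0 FPKM in mature and 65.6, 78.1 and 67.6 FPKM in senescent leaves. The diploid had 15.9, 16.6 and 13.9 FPKM in mature and 5.16, 5.25 and 6.63 FPKM in senescent leaves. The triploid libraries were above all diploid ones at both stages, by 1.47 and 3.42 ± 0.12 (SE; limma adjusted p = 1.8e-09 and 1.8e-15). In buds and young leaves the differences of 0.23 and 0.12 were not called. From mature to senescent leaves it rose by 0.65 in the triploid and fell by 1.31 in the diploid, and the test of this difference gave 1.95 (adjusted p = 2.3e-08). Over the 4 genes the summed level was 114 ± 5.02 FPKM in triploid and 32.1 ± 2.06 FPKM in diploid senescent leaves. No 9S-lipoxygenase was called lower in the triploid at any stage, where 12.7% to 33.8% of all genes were. Eucgr.H03535 and Eucgr.H04496 were higher in triploid young leaves, by 0.85 and 0.80, and Eucgr.H03535 had 11.2, 9.25 and 9.09 FPKM there, against 4.81, 4.62 and 5.59 FPKM in the diploid.

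**Figure D4:**
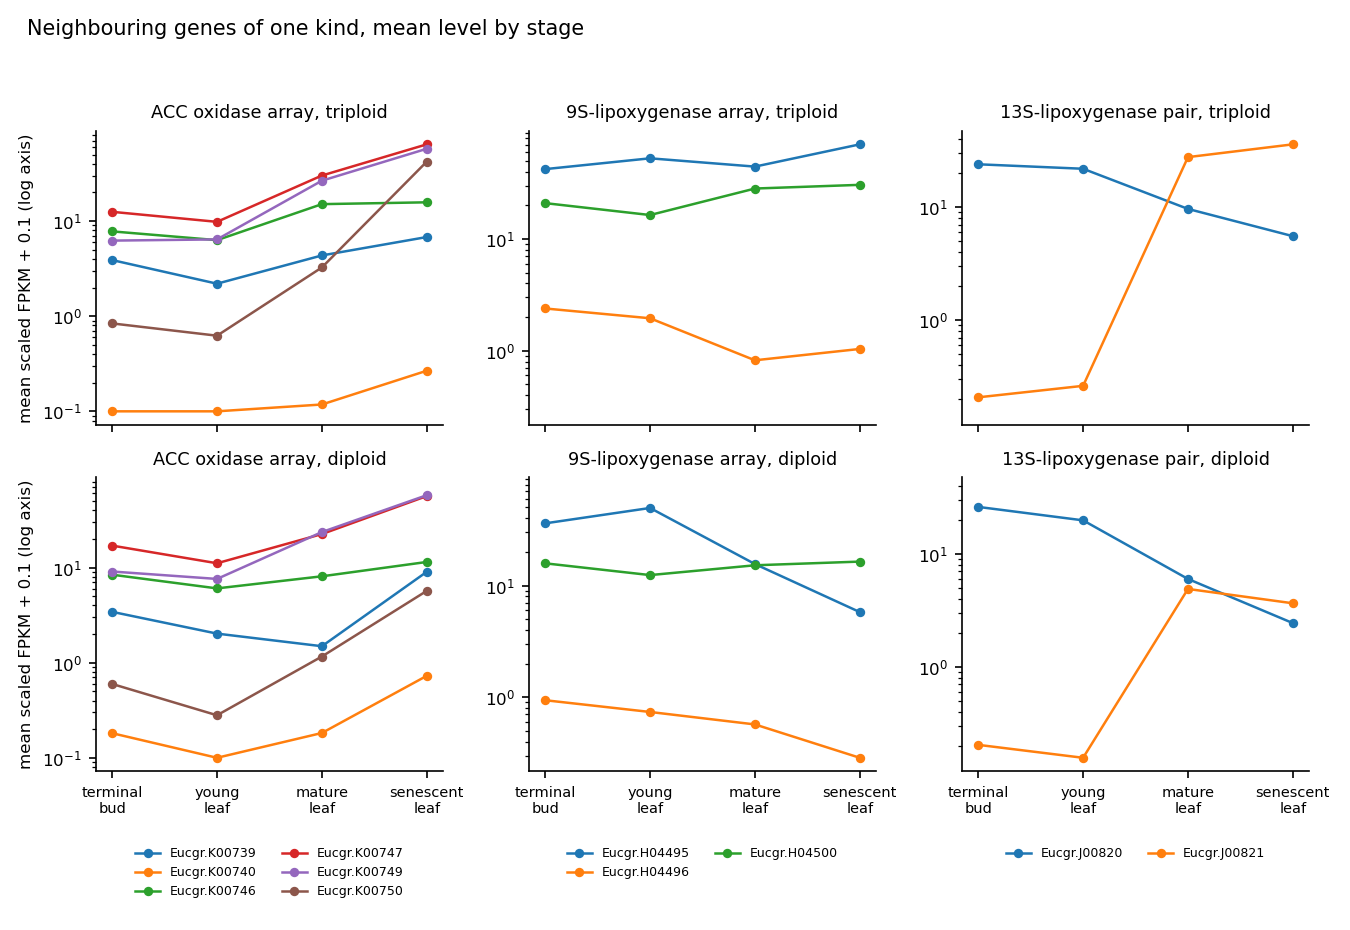
Mean scaled FPKM plus 0.1 (vertical log axes) by stage for 3 sets of neighbouring genes, 6 ACC oxidases (left), 3 9S-lipoxygenases (middle) and 2 13S-lipoxygenases (right), in the triploid above and the diploid below. Points are means of 3 libraries; Eucgr.K00750 reaches 42.1 FPKM in triploid and 5.58 FPKM in diploid senescent leaves, and the lines of Eucgr.J00820 and Eucgr.J00821 cross between young and senescent leaves in both ploidies.

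The next enzyme, allene oxide synthase 1, Eucgr.F01505 (chromosome 6, 20294516–20297520), was highest in buds of both ploidies. Terminal buds had 31.7, 28.8 and 28.9 FPKM in the triploid and 25.3, 28.6 and 19.8 FPKM in the diploid, and were not called (0.28). Mature leaves had 9.09, 8.58 and 10.0 FPKM in the triploid, against 3.2, 3.19 and 4.15 FPKM in the diploid. Senescent leaves had 11.8, 13.5 and 12.5 FPKM in the triploid, against 3.86, 2.71 and 3.55 FPKM in the diploid. The groups were separate at both stages (1.19 and 1.64, limma adjusted p = 5.9e-08 and 3.8e-10), and young leaves differed by 0.43, with an adjusted p of up to 0.064 when single libraries were left out. The change from young to mature leaves differed between the ploidies by 0.76 (adjusted p = 0.0013).

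Allene oxide cyclase, Eucgr.F02479 (chromosome 6, 36854716–36856654), forms the ring of the jasmonate skeleton from the product of the synthase, and its ploidy difference turned over the stages. Terminal buds had 294, 303 and 312 FPKM in the triploid, against 174, 183 and 201 FPKM in the diploid, and senescent leaves 57.4, 56.5 and 55.7 FPKM in the triploid, against 90.2, 78.8 and 89.8 FPKM in the diploid. The triploid was higher in buds and young leaves (0.70 and 0.34) and lower in mature and senescent leaves (−0.21 and −0.60, limma adjusted p = 0.026 and 1.3e-06), of which the mature difference turned to 0.14 without the scaling and was not called by edgeR (adjusted p = 0.12). From young to mature leaves it fell by 1.77 in the triploid and by 1.22 in the diploid, and these falls differed (−0.55, adjusted p = 0.00045), a call that was lost without the scaling (−0.21, adjusted p = 0.15). The synthase and the cyclase, consecutive enzymes, thus had ploidy differences of opposite sign in senescent leaves.

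The OPR genes reduce the ring formed by the cyclase. Of 6 tested, 5 were lower and 1 higher in mature than in young leaves of the triploid, and 4 and 1 in the diploid. The shares of all genes were 36.8% lower and 32.5% higher in the triploid, and 38% and 32.2% in the diploid. The most abundant OPR gene, OPR 2, Eucgr.F02955 (chromosome 6), averaged 42.8, 32.5, 20.9 and 19.5 FPKM from buds to senescent leaves of the triploid and 39.7, 31.9, 20.4 and 21.5 FPKM in the diploid. It was called at no stage between ploidies. OPR 3 is the form that serves jasmonate synthesis in *Arabidopsis*. Eucgr.C00820, annotated as OPR 3 (chromosome 3, 13682336–13689432), had 23.3, 40.9 and 42.4 FPKM in triploid buds, against 19.7, 19.8 and 13.5 FPKM in diploid ones (0.94, limma adjusted p = 0.0013). It overlaps a neighbouring gene, and strand use in the counting is not stated, so that its reads may be shared. Eucgr.H01865, OPR 3-like, was lower there, with 2.25, 3.45 and 2.64 FPKM in the triploid, against 9.43, 8.80 and 6.47 FPKM in the diploid (−1.29, adjusted p = 7.3e-06).

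Jasmonate O-methyltransferase, Eucgr.I02408 (chromosome 9, 34611506–34613923), makes the volatile methyl ester. Its level dipped in young leaves of both ploidies. Senescent leaves had 16.4, 15.5 and 14.6 FPKM in the triploid, against 3.33, 2.62 and 3.83 FPKM in the diploid. Mature leaves had 19.2, 19.6 and 22.5 FPKM in the triploid and 15.5, 16.9 and 18.9 FPKM in the diploid. The ploidies lay apart in senescent leaves (1.96 ± 0.12 SE, limma adjusted p = 1.3e-11), while mature leaves did not overlap but were not called (0.24), and were called without the scaling (0.58, adjusted p = 0.00021). In buds it was higher in the triploid by 0.36 (adjusted p = 0.016), a call lost without the scaling (0.17). From mature to senescent leaves it fell by 0.38 in the triploid and by 2.09 in the diploid, with a difference of 1.71 (adjusted p = 1.5e-07).

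The TIFY genes include those of the JAZ repressors of the response, many of which jasmonate itself is known to induce. The 10 TIFY genes found here, among them TIFY 8 and TIFY 4B, were not sorted into JAZ repressors and others. All 10 were tested, and their ploidy differences were mixed: 2 higher and 5 lower in the triploid in buds, 0 higher and 4 lower in young leaves, 3 and 4 in mature leaves and 3 and 3 in senescent leaves, of which the mature counts became 5 and 3 and the senescent ones 4 and 2 without the scaling. In the older leaves these shares of the 10 genes lay near those of all genes (30.1% and 33.8%, then 29.4% and 30.4%). For buds the shares of all genes were 21.7% and 24.4%, and for young leaves 10.6% and 12.7%. The summed level of the TIFY genes was 437 ± 19.3 FPKM in triploid and 396 ± 20.5 FPKM in diploid senescent leaves. Single genes differed far more than the sum. TIFY 10a, Eucgr.C03301 (chromosome 3, 65858014–65860490), had 92.1, 105 and 109 FPKM in triploid senescent leaves, against 19.9, 19.9 and 21.9 FPKM in diploid ones. Mature leaves had 33.1, 32.3 and 34.3 FPKM in the triploid, against 14.5, 16.6 and 16.5 FPKM in the diploid. In young leaves the order was reversed, with 39.2, 37.3 and 36.3 FPKM in the triploid, against 52.9, 60.3 and 54.8 FPKM in the diploid. No groups overlapped at these 3 stages, and the differences were 2.25 ± 0.14 (SE), 1.02 and −0.56 (limma adjusted p = 2.8e-11, 2.7e-06 and 0.0066). Both stage changes of this gene differed between the ploidies, by 1.59 from young to mature and by 1.23 from mature to senescent leaves.

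TIFY 9, Eucgr.B03545 (chromosome 2), followed a like course at a lower level. It had 13.7, 16.4 and 18.6 FPKM in triploid senescent leaves, against 2.92, 2.75 and 2.55 FPKM in diploid ones, and 2.58, 4.54 and 5.85 FPKM in triploid mature leaves, against 0.959, 0.267 and 1.32 FPKM in diploid ones. The triploid was above the diploid in each of these libraries (2.20 and 1.52, limma adjusted p = 2.8e-08 and 3.9e-06) and below it in buds and young leaves (−0.68 and −0.66), of which the bud call was not made by edgeR (adjusted p = 0.098) and the young leaf call (adjusted p = 0.033) was lost without the 3 libraries farthest from their groups and in 4 of 6 fits with 1 library left out. TIFY 5A, Eucgr.D00289, was highest in buds of both ploidies and rose again from mature to senescent leaves in the triploid (2.09), while the diploid change was not called (0.34). It had 4.41, 4.53 and 5.65 FPKM in triploid senescent leaves, against 1.2, 1.74 and 1.23 FPKM in diploid ones (1.3, adjusted p = 0.00017), a call that edgeR and DESeq2 did not make (adjusted p = 0.16 and 0.09).

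TIFY 10A, Eucgr.C00785, was among the most abundant and rose at senescence in both ploidies, to 156, 168 and 175 FPKM in the triploid and 203, 175 and 198 FPKM in the diploid. Its rise from mature leaves was smaller in the triploid (1.3) than in the diploid (2.05), with a difference of −0.75 (limma adjusted p = 0.0014), and the ploidies were not called at senescence (−0.20, and 0.12 without the scaling). The TIFY 6B gene Eucgr.G02116 (chromosome 7) had 172, 212 and 183 FPKM in triploid young leaves, against 292, 258 and 231 FPKM in diploid ones, and 18.3, 18.8 and 15.6 FPKM in triploid senescent leaves, against 29.9, 32.4 and 38.1 FPKM in diploid ones. It was lower in the triploid at all 4 stages (−0.49, −0.46, −0.88 and −0.89), of which the young leaf call was lost when single libraries were left out (adjusted p of up to 0.086). Eucgr.H00537, also TIFY 6B, was lower in the triploid in buds, young and mature leaves (−0.90, −0.52 and −1.0) and not called in senescent ones (−0.01). Its young leaf call was lost without the scaling (adjusted p = 0.064). Eucgr.G02115, the neighbour of Eucgr.G02116 within 9.6 kb and chosen after its values were seen, had group means of 86.6 to 102 FPKM and was called in none of the 12 comparisons with the scaling used here, while without it the mature leaves of the triploid were called higher (0.34, adjusted p = 0.03).

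**Figure D5:**
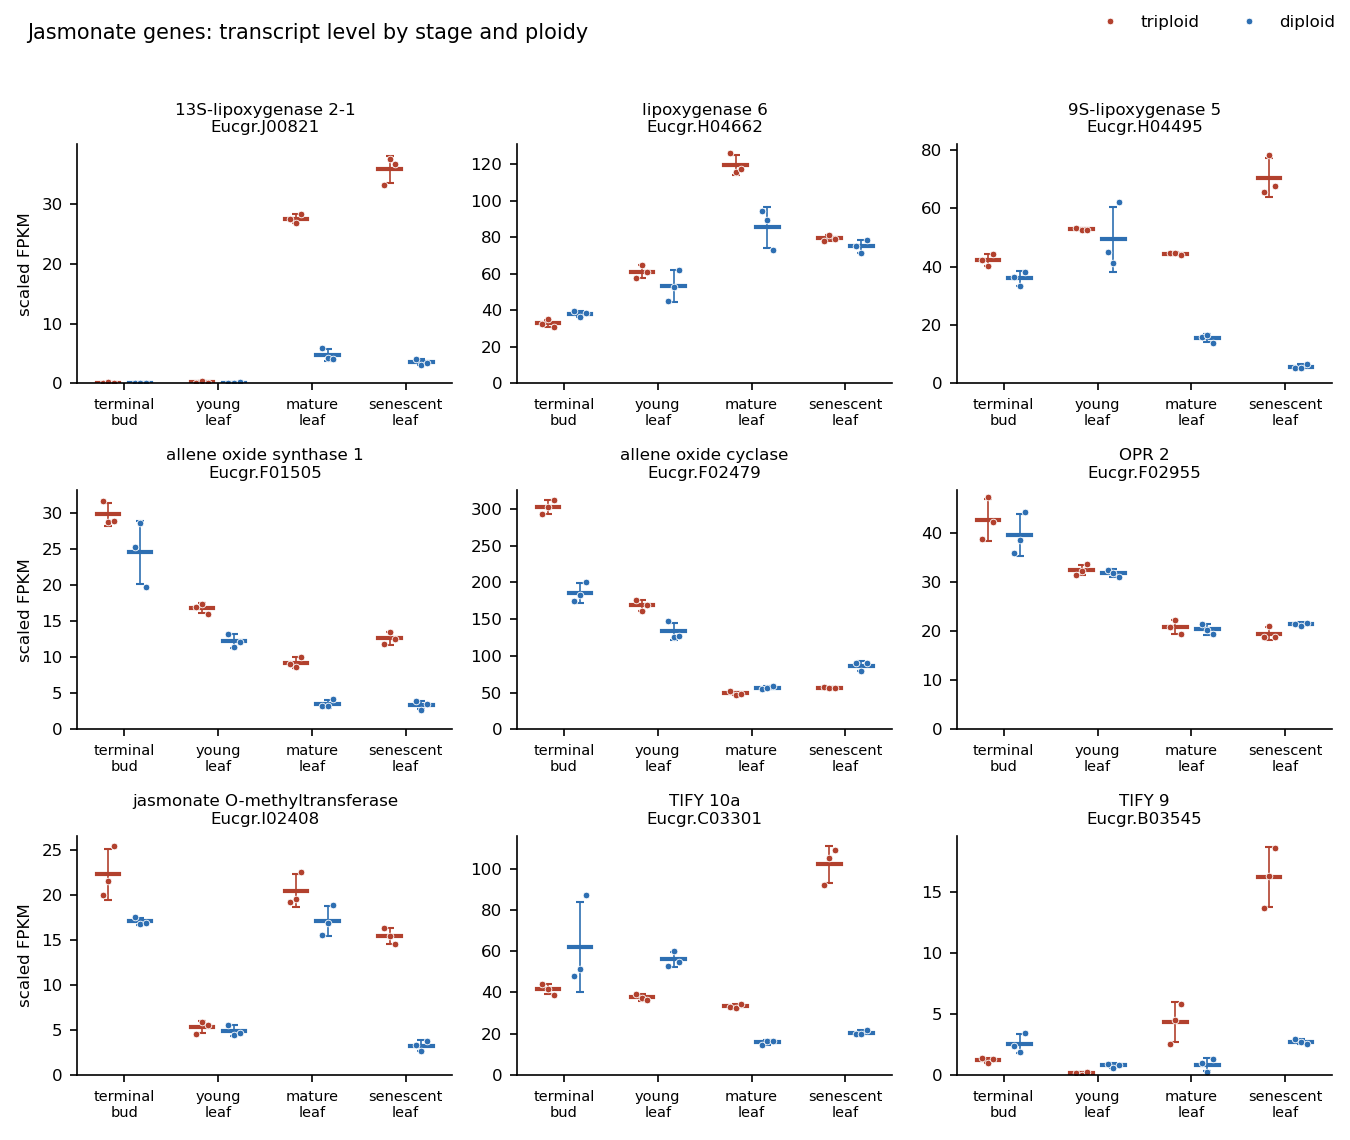
Scaled FPKM (vertical axes, each from 0) of 9 jasmonate genes at the 4 stages, with triploid libraries in red to the left of diploid ones in blue. Points are libraries, bars the means of 3 and whiskers 1 SD; 13S-lipoxygenase 2-1, 9S-lipoxygenase 5, allene oxide synthase 1, TIFY 10a and TIFY 9 are higher in every triploid library than in any diploid one in mature and senescent leaves, while allene oxide cyclase is lower in the triploid at both, in mature leaves only with the scaling used here.

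Other genes of the jasmonate route came from lists of 30 genes, of which 27 were tested. Between ploidies 9 were higher in the triploid and 5 lower in buds, 3 higher and 3 lower in young leaves, 10 and 8 in mature leaves and 10 and 10 in senescent leaves, shares near those of all genes in the older leaves. Before the lipoxygenases, an omega-3 desaturase that makes linolenic acid, Eucgr.J00200, had 20.3, 19.9 and 21.6 FPKM in triploid senescent leaves, against 48.7, 44.0 and 41.9 FPKM in diploid ones (−1.09, limma adjusted p = 3.5e-11). The other omega-3 desaturase of the list was not called between ploidies in senescent leaves. A phospholipase A1 gene, Eucgr.A01923, of the kind that frees fatty acids from lipids, was lower there too (−0.90), while of the other 2 phospholipase A1 genes 1 was higher, and in buds all 3 were higher in the triploid. After OPR, the ligase gene Eucgr.F03543, which activates the precursor for beta-oxidation, was higher in triploid mature and senescent leaves (0.61 and 0.88). An acyl-CoA oxidase of beta-oxidation, Eucgr.H04812, rose from mature to senescent leaves by 2.90 in the triploid and 2.51 in the diploid.

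At the signalling end, JAR1, Eucgr.E00072, which conjugates jasmonate with isoleucine, averaged 1.66 ± 0.284 FPKM in triploid and 0.238 ± 0.129 FPKM in diploid senescent leaves (SD, n = 3; 1.10, limma adjusted p = 4.7e-06, and 0.083 by edgeR). The receptor gene COI1, Eucgr.G03030, was not called between ploidies at any stage and was called higher in mature than in young leaves of both (1.15 in the triploid and 1.10 in the diploid). The MYC gene Eucgr.E01049, a transcription factor that the JAZ proteins repress, was lower in the triploid at all 4 stages, by −1.3, −0.94, −2.60 and −1.72. Over the 4 MYC genes of the list, 0 were higher and 2 lower in buds, 0 higher and 1 lower in young leaves, 2 and 2 in mature leaves and 1 and 2 in senescent leaves. In mature leaves Eucgr.E01049 had 12, 9.95 and 11.9 FPKM in the triploid, against 69.1, 68.8 and 82.9 FPKM in the diploid. Of the CYP94 enzymes that oxidise the conjugate, Eucgr.J00477 and Eucgr.G02702 were higher in triploid terminal buds, each by 2.24. Of the 5 CYP94 genes tested these were the calls in buds, while 1 was higher and 1 lower in mature leaves and 1 higher and 3 lower in senescent leaves. From buds to senescent leaves, 21.7%, 10.6%, 30.1% and 29.4% of all genes were called higher and 24.4%, 12.7%, 33.8% and 30.4% lower.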

How the data were processed

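The authors aligned the reads to *E. grandis* and deposited FPKM values and read counts per gene. The submitters' processing notes name HISAT2 2.0, StringTie 1.3.0 and Bowtie 0.12.2. Strand use in counting is not given in the sources used here. The labels give a mouse genome build, a NovaSeq and selection of poly(A) RNA, where the methods give a HiSeq and a total RNA kit. Of the deposited FPKM values, 130519 did not exceed 0.0001 and were set to 0. Scaling used the median ratio of a library over 11530 genes with 1 FPKM or more in all 24 libraries. limma 3.58.1 with a variance trend was fitted to log2(FPKM + 1) with 8 group means, over 19174 genes averaging 0.5 FPKM or more, and p-values were adjusted over all of them by Benjamini-Hochberg. As alternatives, edgeR 4.0.16 and DESeq2 1.42.0 (genes whose counts summed to 10 or more) were run on the deposited counts of 22 libraries, of which 1 was of diploid senescent leaves. There 2 columns of counts were tied to no library and were not used. The other alternatives were no scaling, a pseudocount of 0.1, other filters, a replicate block, and leaving out libraries. The limma fit with scaling and the edgeR fit were tested on simulated data, and DESeq2 was not. In the 7 groups with counts for more than 1 library, libraries differed beyond counting noise (chi-square per gene of at least 17.6). Members named by rule are the most abundant of each class of enzyme or protein and, in each of 12 comparisons, the 3 ethylene and 3 jasmonate genes called with the largest difference. Genes named from the other lists of the 2 routes were picked by no set rule. The members and lists were chosen with earlier results of these data known. Tables and figures were made with pandas 2.3.3, numpy 2.4.6 and matplotlib 3.10.9 in Python 3.11.15, and models in R 4.3.3.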

Additional observations from a re-analysis of the deposited data

Results flagged for a closer look

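For 25 of the 36 named genes the change between stages differed between triploid and diploid leaves in 1 or both of the older steps, by the test of that difference in limma (33 results). Over all genes, 22.5% were called more positive and 24.5% more negative in the triploid from young to mature leaves. From mature to senescent leaves these shares were 14.8% and 12%. Some named genes were chosen for their large called differences in these same comparisons, so the choice favours a high count. From young to mature leaves, the change in the triploid minus that in the diploid on the log2 scale was 0.45 for ACC synthase (Eucgr.D01814), 1.06 and 0.65 for the ACC oxidase 3 genes Eucgr.K00739 and Eucgr.K00750, 1.34 for the ACC deaminase gene Eucgr.H00596, 1.29 and −0.69 for the ACC oxidase homologs Eucgr.H03111 and Eucgr.A02646, 1.47 for the ethylene receptor gene Eucgr.H03145 and 0.67 for the EIN3 gene Eucgr.J00631. Among jasmonate genes it was 2.20 for 13S-lipoxygenase 2-1 (Eucgr.J00821), −0.83, 1.35 and −0.59 for the 9S-lipoxygenases Eucgr.H03535, Eucgr.H04495 and Eucgr.H04496, 0.76 for allene oxide synthase (Eucgr.F01505), −0.55 for allene oxide cyclase (Eucgr.F02479), −0.81 for OPR 3 (Eucgr.C00820) and 2.18, 0.49 and 1.59 for the TIFY genes Eucgr.B03545, Eucgr.C00785 and Eucgr.C03301. From mature to senescent leaves it was −0.53, −1.51 and 1.69 for the ACC oxidases Eucgr.E03977, Eucgr.K00739 and Eucgr.K00750, 1.16 and −0.70 for the homologs Eucgr.A02644 and Eucgr.H03105, and −0.27 for Eucgr.J00631. Among jasmonate genes it was 0.70 and −0.40 for the 13S-lipoxygenases Eucgr.J00821 and Eucgr.H04662, 1.95 for 9S-lipoxygenase 5 (Eucgr.H04495), −0.39 for Eucgr.F02479, −0.75, 1.23, 1.75 and 0.99 for the TIFY genes Eucgr.C00785, Eucgr.C03301, Eucgr.D00289 and Eucgr.H00537, and 1.71 for jasmonate O-methyltransferase (Eucgr.I02408). Of these 33 results, 5 were not called without the scaling, 10 not with edgeR and 8 not with DESeq2, both on counts with 1 diploid senescent library.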

How the results depend on the processing

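Of 24 counts of called genes (12 comparisons for each hormone), all stayed within 1.5 times the reported count with DESeq2, without scaling, with a pseudocount of 0.1, with no filter or one at a mean of 1 FPKM, and with the replicate block, which moved 7 counts by at most 2 genes. These counts add higher and lower genes, so they cannot show a change in the balance between them. Without the scaling that balance moved, for ethylene genes in mature against young diploid leaves from 17 higher and 6 lower to 13 and 14. Replicate numbers are shared between groups, but deviations from the group means correlated at −0.213 to 0.105 over 12 pairs of libraries of the same number and stage and at −0.310 to 0.331 over 36 pairs within a ploidy, so the numbers were not taken as pairs. With edgeR the ethylene genes called between ploidies in senescent leaves were 13 in place of 20, and the jasmonate genes whose change from mature to senescent leaves differed were 7 in place of 11. Without the 3 diploid libraries farthest from their groups, 4 ethylene genes in place of 8 were called between ploidies in young leaves. Leaving out 1 library at a time moved 4 of 168 values past 1.5 times. The ethylene count in young leaves lay between 4 and 7, and the jasmonate count in senescent against mature diploid leaves between 9 and 15. The cause of these moves was not tested. The 72 gene and comparison pairs behind the choice of named genes were the largest called differences, so a reversal among them was unlikely from the start. Smaller differences of named genes did reverse without the scaling, as for Eucgr.F02479 between ploidies in mature leaves (−0.21 to 0.14). No direction of the 72 pairs was reversed under any alternative. Their calls were lost for 4 pairs with edgeR, 4 with DESeq2 and 1 without these 3 libraries, and in 6 of 504 values with 1 library left out, all for Eucgr.B03545 in young leaves and Eucgr.K03275 in mature leaves between ploidies. FPKM near 0, as for the ACC synthases, limits what a difference can show.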

Other observations

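The annotation terms in the expression table, which the choice of genes did not use, cover only some of the members. The term for ethylene biosynthesis was attached to 10 of the 43 ethylene genes, and to 28 genes in the whole table. That for jasmonic acid biosynthesis was attached to 11 of the 32 jasmonate genes, and to 42 genes in all, and the response to wounding to 12 of the 32, and to 176 in all. These are values with no test.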
